A study of Mus musculus with 8 samples.

Results

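Antisense transcripts are RNAs annotated on the strand opposite another gene. All rows of the isoform table whose transcript biotype was antisense were taken, which gave 3618 of the 122968 isoforms in the table and 2531 genes. Of these transcripts, 3368 belonged to genes also annotated as antisense, 241 to genes annotated as processed transcripts, 6 to protein-coding genes and 3 to lincRNA genes.

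The table came from RNA-seq of LEC, mouse liver endothelial cells of C57BL/6 origin immortalized with the SV40 virus. In 4 libraries of siL-DHX15-LEC, a lentiviral shRNA under a doxycycline-induced Tet-On promoter silenced DHX15, an RNA helicase that takes part in releasing the spliceosome from RNA. The 4 wild-type LEC libraries are labelled untreated, and no sample carried the vector and doxycycline without silencing, so what either of them did cannot be told apart from the silencing. In the list of lanes of the sequencing center the conditions are on different lanes, so a lane effect cannot be told apart from one of condition. The authors describe the 4 samples of a condition as biologically independent, but the labels do not say that the libraries came from separate cultures. The p-values therefore measure the spread between these samples, which may be technical.

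Dhx15 itself averaged 8968 ± 856 normalized counts in siL-DHX15-LEC and 27303 ± 797 in wild-type LEC (SD, n = 4 each), a log2 fold change of -1.61. Reads recovered per library ranged from 77335734 to 152045693, of which 36886 to 79292 fell on antisense transcripts. Of 16 endothelial markers 8 had a mean over 10, Emcn was at 0 in every library and Cdh5 was at 4.7 or less. The list summed to 9785 to 10114 in siL-DHX15-LEC and 10238 to 10985 in wild-type LEC, most of it Pdpn, which overlapped. Kdr overlapped too, at 744 to 800 in siL-DHX15-LEC and 682 to 815 in wild-type LEC. Flt1 (1433 to 1602 against 1617.5 to 1803) and Eng (312 to 337 against 366 to 441) lay lower in siL-DHX15-LEC without overlap. Pecam1 lay higher, at 35.1 to 40.8 in siL-DHX15-LEC and 19.0 to 33.0 in wild-type LEC. Of 20 hepatocyte markers 18 had a mean over 10 across the 8 libraries, many of them through wild-type LEC alone. In siL-DHX15-LEC only Trf, Rbp4, Apob, Apoa1 and Apoa2 lay above 10. No siL-DHX15-LEC library held any count of Mup3, Mup7, Mup20, Ttr, Fga, Fgb, Serpina1a or Serpina1c. Wild-type LEC libraries had 32.6 to 185 of each. The hepatocyte markers summed to 7144 to 7859 in siL-DHX15-LEC and 9756 to 10503 in wild-type LEC. Alb was at 0 to 1.9 in siL-DHX15-LEC and at 522 to 658 in wild-type LEC. The sum of 8 stellate cell and fibroblast markers was 45929 to 47484 in siL-DHX15-LEC and 54267 to 55052 in wild-type LEC. Trf, which makes up most of the hepatocyte sum, lay lower in every siL-DHX15-LEC library. Only Rbp4 lay higher, at 1696 to 1786 in siL-DHX15-LEC and 1487 to 1631 in wild-type LEC. Every other hepatocyte marker had a lower mean in siL-DHX15-LEC. Among the stellate cell and fibroblast markers, Col1a1, which makes up most of that sum, and Acta2 lay lower in every siL-DHX15-LEC library. Des lay higher, at 578 to 632 in siL-DHX15-LEC and 466 to 512 in wild-type LEC, and Col3a1 and Pdgfrb had higher means with overlap. The part of these differences in the results below was not tested, and in bulk samples fewer cells of a type and less RNA per cell cannot be told apart.

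Antisense RNAs are commonly transcribed from the same promoter region as a neighbouring gene in the opposite direction, or from inside a gene on its other strand. Some act on the gene they face: Airn and Kcnq1ot1 silence imprinted neighbours on the same chromosome, and Tsix represses Xist. Others, such as Zfas1, serve as hosts of small nucleolar RNAs that lie in their introns, and for most no function is known.

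The transcripts were placed on GRCm38 with GENCODE M21 by transcript ID, which matched all but 15 of them. Exons of 1833 transcripts (50.7%) overlapped exons of a gene on the other strand, and 1289 (35.6%) overlapped such a gene without shared exon bases. A further 210 did not overlap but started within 1000 bases of the start of a gene on the other strand, and 271 lay farther away. The 502 transcripts whose mean reached 10 normalized counts, which were those tested, had a median of 2 exons and a median length of 1240 bases, against 6 exons and 1820 bases for all isoforms tested, and 21.9% of them had a single exon, against 7.08%.

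The sequences below show 3 features of the transcripts described further on: the point where 2 isoforms of 1 locus part, the space between opposed starts, and the 3′ end. Gt(ROSA)26Sor is the locus used for the insertion of transgenes in mice. Its isoforms -004 and -002 share the start of exon 2 on the minus strand of chromosome 6. Exon 2 of -004 ends at position 113071294 and is joined to exon 3, which begins at 113067818, whereas in -002 exon 2 runs on to 113070398. The last 30 shared bases are in lower case, and the 30 bases that follow in each isoform are in capitals. In -002 these begin with GT, the first bases of the intron of -004.
Gt(ROSA)26Sor-004: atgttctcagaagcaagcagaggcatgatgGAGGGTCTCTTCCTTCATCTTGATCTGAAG
Gt(ROSA)26Sor-002: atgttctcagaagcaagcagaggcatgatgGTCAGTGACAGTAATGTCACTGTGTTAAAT

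Of the 502 transcripts tested, 293 (58.4%) started within 1000 bases of the start of a gene on the other strand. In 134 of these the starts pointed away from each other, and in 159 the antisense start lay past that of the other gene. The bases between the starts are given for 3 pairs that point away from each other, from RefSeq (GRCm38.p6), read in the direction of the antisense transcript and ending 20 bases into it. Capitals mark GGGCGG or CCAAT on either strand. Gm4285-001 starts 129 bases from Tpt1, Brip1os-001 177 bases from Brip1 and Tmem147os-001 39 bases from Tmem147, and the windows are chr14:75844945-75845092, chr11:86201194-86201389 and chr7:30729541-30729598.
Gm4285-001: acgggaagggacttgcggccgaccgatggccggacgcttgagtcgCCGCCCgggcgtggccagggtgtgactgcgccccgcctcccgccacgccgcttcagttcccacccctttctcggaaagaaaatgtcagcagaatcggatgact
Brip1os-001: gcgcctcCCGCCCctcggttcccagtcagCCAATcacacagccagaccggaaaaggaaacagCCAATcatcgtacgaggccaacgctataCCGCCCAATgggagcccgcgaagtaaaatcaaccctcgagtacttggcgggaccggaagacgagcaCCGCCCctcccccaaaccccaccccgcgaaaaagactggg
Tmem147os-001: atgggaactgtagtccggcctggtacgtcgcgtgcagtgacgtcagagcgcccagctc

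The Brip1os window held GGGCGG and CCAAT several times and the Tmem147os window neither. For the 377 antisense genes with a tested transcript, 192 RefSeq promoter windows of 300 bases were found by symbol. GGGCGG, on either strand, was in 51.6% of these windows, in 27.0% of the 1102 windows found for all antisense genes in the table and in 35.7% of the 32851 windows of all genes. TATAAA on either strand was in 8.85%, 9.53% and 13.6% of the windows of these same sets, and the median number of CG pairs was 18, 5 and 7. Only the first set was filtered by level, and the windows of all tested genes were not counted apart, so the part of level in these differences was not tested.

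The libraries were made from polyadenylated RNA. The signals AATAAA or ATTAAA, on the transcript strand, were in the last 50 bases of 267 of the 502 tested antisense transcripts (53.2%), of 39.0% of the antisense transcripts at 0 in every library, and of 46.6% of all isoforms tested. Of the 21 transcripts called below, 15 (71.4%) held one. The last 45 bases are shown for Zfas1-001, which rose, and for Zfp335os-001 and Gm15998-001, which fell. Capitals mark the signal, which Gm15998-001 lacks there.
Zfas1-001: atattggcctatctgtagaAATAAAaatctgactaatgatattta
Zfp335os-001: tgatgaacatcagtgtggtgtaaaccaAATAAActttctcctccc
Gm15998-001: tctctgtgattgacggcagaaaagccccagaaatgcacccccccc

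Most antisense transcripts were low or absent. At 0 in every library were 1677 of them (46.4%), which allows up to 3 reads, or 2.38 to 5.09 normalized counts, in a library, by counting error only. Another 1439 had a mean under 10. Only 184 had a mean of at least 50, 104 of at least 100 and 6 of at least 1000. Together the antisense transcripts held 62306 to 64636 normalized counts in siL-DHX15-LEC and 62549 to 64280 in wild-type LEC. Brip1os-001 alone held 14.9% of these counts, the first 10 transcripts 39.5% and the first 100 transcripts 74.7%.

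The share of all normalized counts in antisense transcripts was 0.0477%, 0.0479%, 0.0481% and 0.0501% in siL-DHX15-LEC, against 0.0493%, 0.0521%, 0.0511% and 0.0509% in wild-type LEC. The highest siL-DHX15-LEC library lay above the lowest wild-type LEC library, and the difference did not pass (two-sided exact permutation p = 0.0571, n = 4 each, smallest possible 0.0286). Without Brip1os-001 the p was also 0.0571. Over the transcripts of genes annotated as antisense alone, the share was 0.0380% ± 0.000713 in siL-DHX15-LEC and 0.0395% ± 0.000311 in wild-type LEC, without overlap (SD, exact permutation p = 0.0286, n = 4 each). The number of antisense transcripts with at least 10 normalized counts was 491 to 518 per library in siL-DHX15-LEC and 494 to 510 in wild-type LEC (exact permutation p = 0.771, n = 4 each).

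The kit used marks the strand, but the strand setting of the counting is not given in the sources used here, and without it reads of a gene and of its antisense transcript could not be told apart. As a description, 69 antisense transcripts lay to at least 90% inside exons of a gene with a mean of at least 1000. Of these, 59 had a mean under 10. The median density of counts per base over the 69 was 0.265% of that of the gene they faced. The exceptions over 10% were A630072M18Rik-001, at 31.0% of the density of Rsbn1l, and Hoxb3os-002, at 38.7% of that of Hoxb3, both named after their values were seen. These values do not settle the strand setting, because RSEM, the counting tool, divides reads that fit several transcripts by their estimated levels. Low values inside an abundant gene could then arise with either setting.

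The most abundant transcript was Brip1os-001, which starts next to Brip1, a DNA helicase gene, and ends in Ints2, an Integrator subunit gene. It had 9030, 9072, 9241 and 9075 normalized counts in siL-DHX15-LEC, against 10259, 9285, 9805 and 9665 in wild-type LEC. The groups did not overlap, but the log2 fold change of -0.10 ± 0.04 (SE) did not pass (limma, adjusted p = 0.13). Brip1 itself fell to 2505 ± 247 in siL-DHX15-LEC, against 3180 ± 273 in wild-type LEC (SD, log2 fold change -0.35, adjusted p = 0.0052 by limma), and Ints2 had 7055 ± 395 in siL-DHX15-LEC and 7267 ± 154 in wild-type LEC (adjusted p = 0.46).

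Tug1-003, an isoform of the long noncoding RNA Tug1, had 3829, 2979, 4401 and 4866 normalized counts in siL-DHX15-LEC, against 4504, 5474, 5695 and 5250 in wild-type LEC. The groups overlapped, and the log2 fold change of -0.40 ± 0.14 did not pass (limma, adjusted p = 0.12). As the sum of its 4 antisense isoforms, Tug1 fell to 5803 ± 1035 in siL-DHX15-LEC, against 7521 ± 781 in wild-type LEC (SD, log2 fold change -0.39, limma adjusted p = 0.0216). The sums overlapped too, with 7083 in the highest siL-DHX15-LEC library and 6433 in the lowest wild-type LEC library.

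Per length the order differed. Zfas1-001, with 738 bases, had 4977 normalized counts per 1000 bases averaged over the 8 libraries, Brip1os-001 had 2132, Hotairm1-002 had 1855 and Tug1-003 had 905. Kcnq1ot1-001, with 93092 bases, had 15.0 by the same measure, with 1178, 918, 1382 and 1603 normalized counts in siL-DHX15-LEC, against 1215, 1527, 1699 and 1613 in wild-type LEC. Its groups overlapped (log2 fold change -0.27, limma adjusted p = 0.37). Of the other transcripts among the 10 with the highest mean, 1110002L01Rik-001 (log2 fold change 0.19, adjusted p = 0.1), 2810402E24Rik-001 (0.02, adjusted p = 0.92), 4933431E20Rik-001 (-0.03, adjusted p = 0.87), Tug1-002 (-0.36, adjusted p = 0.067) and Tug1-001 (-0.40, adjusted p = 0.47) did not pass by limma.

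**Figure D1:**
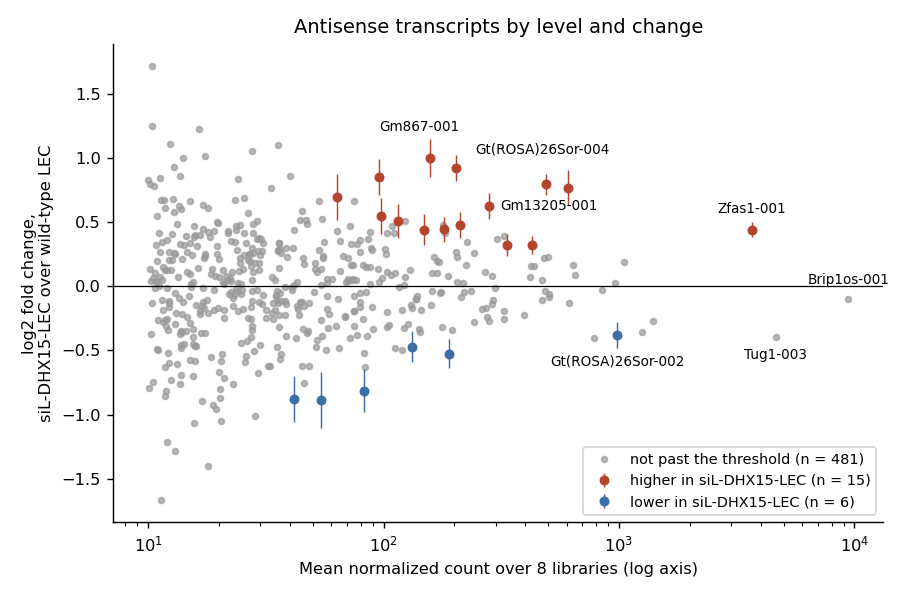
Each point is 1 of the 502 antisense transcripts tested, with its mean normalized count over the 8 libraries on a log axis and its log2 fold change of siL-DHX15-LEC over wild-type LEC, with bars of 1 SE on the 21 that passed. The 15 higher and 6 lower transcripts had means of 41.6 to 3673, and Brip1os-001 and Tug1-003, the most abundant, lie below 0 without passing.

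With limma over all 50198 isoforms with a mean of at least 10 and an adjusted p of 0.05, 21 of 502 antisense transcripts (4.18%) passed, 15 of them higher in siL-DHX15-LEC and 6 lower. Among all isoforms 10.4% passed, 6.61% higher and 3.83% lower. Under an adjusted p of 0.001, 0 antisense transcripts passed by limma, where 0.287% of all isoforms did. At an unadjusted p under 0.05 by limma there were 78 (15.5%), where 25.4% of all isoforms passed, and at an adjusted p of 0.001 there were 0 by edgeR and 7 by DESeq2, where 0.271% and 7.2% of all isoforms passed by these tools. The conditions did not overlap in 78 antisense transcripts (15.5%), 46 of them higher and 32 lower, and in 18.1% of all isoforms. The median log2 fold change was 0.02 over the 502 and -0.02 over all isoforms.

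Antisense transcripts were lower than other isoforms, with a median of the mean level of 30.8 normalized counts, against 123 over all isoforms tested, and the share that passed moved with the level. It was 1 of 318 (0.314%) for means of 10 to 50, where 1.46% of all isoforms passed, and 5 of 80 (6.25%) for means of 50 to 100, where 4.32% did. For means of 100 to 1000 it was 14 of 98 (14.3%), where 10.8% of all isoforms passed, and above 1000 it was 1 of 6, where 25.4% did. Among other isoform classes, 39 of 650 lincRNA transcripts (6.0%), 3.24% of retained introns and 14.9% of protein-coding isoforms passed.

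**Figure D2:**
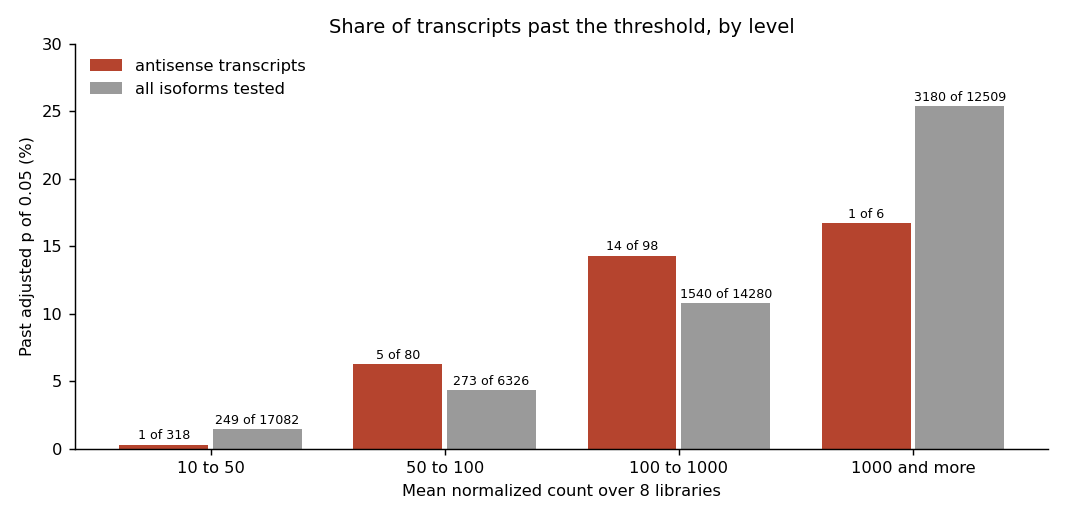
Bars give the percentage of transcripts past an adjusted p of 0.05 (limma) in 4 classes of mean normalized count, for antisense transcripts beside all isoforms tested, with the counts above each bar. The share ran between 0.314% and 16.7% for antisense transcripts and between 1.46% and 25.4% for all isoforms, highest in the top class of each.

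The count depended on the libraries and the scaling. Replicate numbers follow the order of the deposited columns and are not in the labels. Rescaling the libraries to equal totals gave 9 higher and 12 lower, and all isoforms turned in the same direction, with 4.2% higher and 6.28% lower. DESeq2 on recovered reads gave 24 higher and 11 lower, with 9.68% higher and 6.39% lower among all isoforms. Without wild-type LEC replicate 4 there were 7 higher and 0 lower, without siL-DHX15-LEC replicate 1 there were 8 and 3, without siL-DHX15-LEC replicate 2 there were 8 and 1, without siL-DHX15-LEC replicate 3 or wild-type LEC replicate 3 there were 9 and 2, without wild-type LEC replicate 2 there were 9 and 4, without wild-type LEC replicate 1 there were 13 and 3, and without siL-DHX15-LEC replicate 4 there were 15 and 7. Calls over all isoforms moved too, with 2920 without wild-type LEC replicate 4, 3177 without siL-DHX15-LEC replicate 1 and 5891 without siL-DHX15-LEC replicate 4, against 5242 with all libraries. Of the 21 transcripts, 7 passed in each of the 9 other fits and without each library in turn: Gm13205-001, Gt(ROSA)26Sor-004, Zfas1-001, Gm867-001, Gm12758-001, 1500002C15Rik-201 and Gm4285-001. All 7 were higher in siL-DHX15-LEC.

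**Figure D3:**
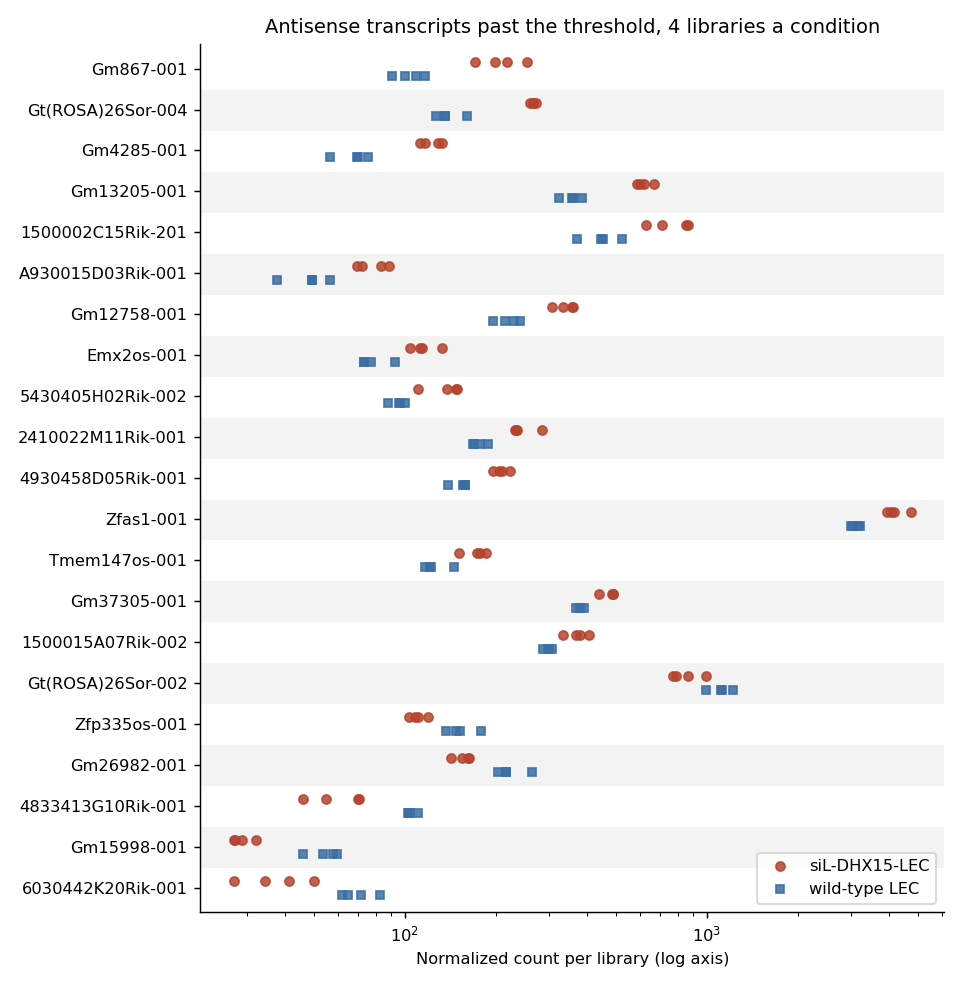
Normalized counts on a log axis of the 21 antisense transcripts past the threshold, ordered by log2 fold change, with siL-DHX15-LEC libraries as circles above wild-type LEC libraries as squares, 4 each. The conditions are apart in 20 of the 21 transcripts, and only Gt(ROSA)26Sor-002 overlaps.

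Gm13205-001 (chr4:148947492-148948914, minus strand) is an antisense RNA of 2 exons in Casz1, a zinc finger transcription factor gene, and shares 122 of its 562 bases with exons of Casz1. It had 618, 669, 602 and 587 normalized counts in siL-DHX15-LEC, against 361, 357, 386 and 324 in wild-type LEC. All siL-DHX15-LEC libraries lay above all wild-type LEC libraries (log2 fold change 0.79 ± 0.08, limma adjusted p = 0.0014). Casz1 moved the other way, with 171 ± 13.3 in siL-DHX15-LEC and 219 ± 6.40 in wild-type LEC (SD, n = 4 each, log2 fold change -0.36, limma adjusted p = 0.008).

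Zfas1-001 (chr2:167062934-167065862, plus strand) starts 81 bases inside Znfx1, which encodes a zinc finger helicase, and runs out of it. It had 4729, 4180.5, 4075 and 3952 normalized counts in siL-DHX15-LEC, against 3045, 3176, 3009 and 3214 in wild-type LEC, without overlap (log2 fold change 0.44 ± 0.06, limma adjusted p = 0.0036). Znfx1 rose to 3546 ± 128 in siL-DHX15-LEC, against 3185 ± 87.9 in wild-type LEC (SD, log2 fold change 0.15, limma adjusted p = 0.015).

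Gm867-001 (chr10:75937723-75940672, minus strand), with 7 exons, is listed as antisense in the table and as a processed transcript in GENCODE M21. It had 199, 254, 219 and 170.3 normalized counts in siL-DHX15-LEC, against 90.7, 117, 109 and 100.4 in wild-type LEC, the largest log2 fold change of the 21 at 1.00 ± 0.15 (limma adjusted p = 0.0051). It shares 25 bases with Chchd10, a mitochondrial protein gene, which rose to 6699 ± 781 in siL-DHX15-LEC, against 4137 ± 219 in wild-type LEC (SD, log2 fold change 0.69, limma adjusted p = 7.8e-05).

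Gm4285-001 (chr14:75843379-75844964, minus strand) faces away from Tpt1, which encodes the translationally controlled tumour protein, across the 129 bases printed above. It had 132, 129, 117 and 113 normalized counts in siL-DHX15-LEC, against 56.7, 75.4, 70.0 and 69.2 in wild-type LEC, without overlap (log2 fold change 0.85 ± 0.14, limma adjusted p = 0.007). Tpt1 rose to 268193 ± 3609 in siL-DHX15-LEC, against 234888 ± 7468 in wild-type LEC (SD, log2 fold change 0.19, limma adjusted p = 0.0027).

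Gm12758-001 (chr7:34234377-34240207, plus strand) had 360.0, 359, 334 and 307 normalized counts in siL-DHX15-LEC, against 214, 241, 195 and 230.2 in wild-type LEC (log2 fold change 0.63 ± 0.10, limma adjusted p = 0.0067). It shares 2696 of its 4175 bases with exons of 4931406P16Rik, which had 5288 ± 164 in siL-DHX15-LEC and 5548 ± 143 in wild-type LEC (SD, adjusted p = 0.18). The single exon of 1500002C15Rik-201 (chr4:155732548-155734627, minus strand) had 856, 867, 711 and 628 normalized counts in siL-DHX15-LEC, against 454, 522, 445 and 371 in wild-type LEC (log2 fold change 0.77 ± 0.14, limma adjusted p = 0.01). It shares 407 bases with Ssu72, which encodes a phosphatase of the RNA polymerase II tail and did not pass, with a log2 fold change of 0.02 (limma adjusted p = 0.8).

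Gt(ROSA)26Sor was the only gene with antisense transcripts past the threshold in both directions. Isoform -004 (chr6:113067428-113077191, minus strand), spliced to exon 3, had 259.8, 271, 266 and 265 normalized counts in siL-DHX15-LEC, against 136, 127, 136 and 161 in wild-type LEC, a log2 fold change of 0.92 ± 0.10 (limma adjusted p = 0.0017). Isoform -002 (chr6:113070398-113077210), with the long exon 2, had 773, 789, 865 and 996 in siL-DHX15-LEC, against 1123, 1114, 990 and 1222 in wild-type LEC, a log2 fold change of -0.38 ± 0.10 (limma adjusted p = 0.043). The conditions were apart in -004 and overlapped in -002, where the highest siL-DHX15-LEC library lay above the lowest wild-type LEC library. The fall of -002 passed in 7 of the 9 other fits and in 2 of 8 without 1 library, with an adjusted p of up to 0.117, and the rise of -004 in all of them.

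The sum over the isoforms of Gt(ROSA)26Sor was 1340 ± 127 normalized counts in siL-DHX15-LEC and 1475 ± 107 in wild-type LEC (SD, n = 4 each, log2 fold change -0.14, limma adjusted p = 0.16). Of this sum, -004 made up 17.4% to 21.1% in siL-DHX15-LEC, against 8.59% to 10.2% in wild-type LEC, and -002 made up 61.3% to 65.5% in siL-DHX15-LEC, against 74.1% to 76.5% in wild-type LEC. Gt(ROSA)26Sor-003, whose exon 2 has 662 bases, made up 14.4% to 17.1% in siL-DHX15-LEC and 13.4% to 15.9% in wild-type LEC. These shares come from the values that named the isoforms and are given as a description. Exon 3 of -004, with 391 bases, is in neither of the other 2 isoforms, and the 142 bases of its exon 2 are in both. Setd5, which starts 155 bases from -002 in the other direction, rose to 29186 ± 807 in siL-DHX15-LEC, against 25468 ± 1268 in wild-type LEC (SD, log2 fold change 0.20, limma adjusted p = 0.0037), and Thumpd3, whose exons share 145 bases with -004, did not pass, at 0.03 on the log2 scale (adjusted p = 0.59).

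**Figure D4:**
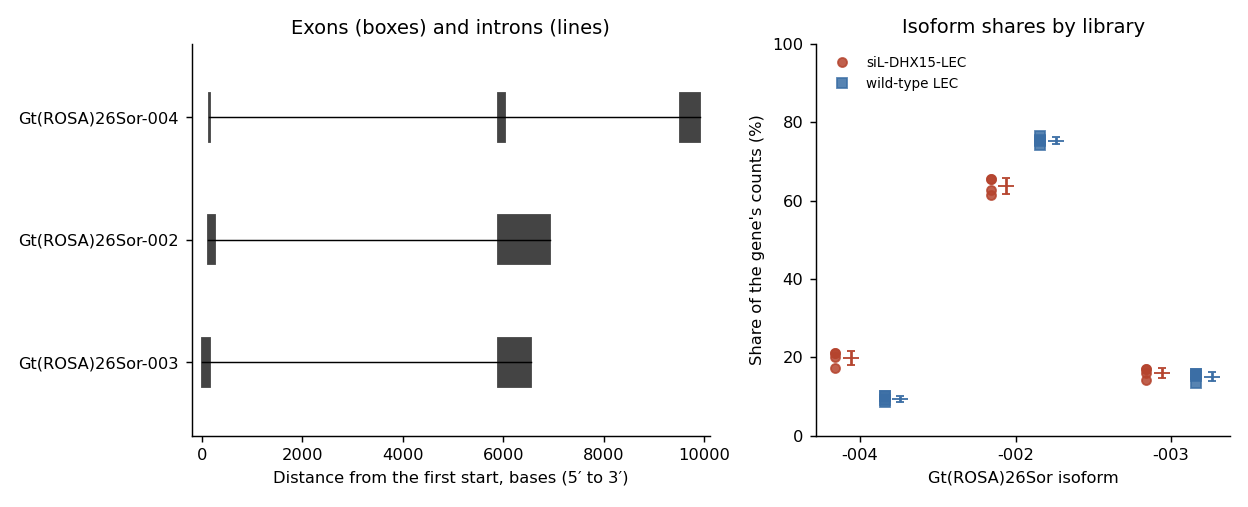
Left, exons (boxes) and introns (lines) of 3 Gt(ROSA)26Sor isoforms by distance in bases from the first start, read 5′ to 3′. Right, the share of each isoform in the gene's normalized counts in percent, with siL-DHX15-LEC libraries as circles left of wild-type LEC libraries as squares and mean ± SD beside them (n = 4 each): -004 lies at 17.4% to 21.1% in siL-DHX15-LEC and at 8.59% to 10.2% in wild-type LEC.

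Several other transcripts that rose lie at a start of a coding gene. 2410022M11Rik-001, 273 bases from Zmym5, had 284, 234, 234 and 232 normalized counts in siL-DHX15-LEC, against 170.0, 178, 188 and 168 in wild-type LEC (log2 fold change 0.48 ± 0.10, limma adjusted p = 0.021). Zmym5 had a log2 fold change of -0.25 and did not pass (adjusted p = 0.088). Tmem147os-001, 39 bases from Tmem147, had 185, 173, 177 and 151 in siL-DHX15-LEC, against 145, 122, 121 and 117 in wild-type LEC (log2 fold change 0.44 ± 0.12, limma adjusted p = 0.049). Tmem147, a gene of an endoplasmic reticulum membrane protein, rose as well, by 0.12 on the log2 scale (adjusted p = 0.04).

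Emx2os-001 (chr19:59425104-59458635, minus strand) shares 264 bases with Emx2, a homeobox gene. It had 132, 114, 112 and 104 normalized counts in siL-DHX15-LEC, against 73.2, 73.0, 92.9 and 77.0 in wild-type LEC, without overlap (log2 fold change 0.55 ± 0.14, limma adjusted p = 0.041). Emx2 rose with it, to 1418 ± 172 in siL-DHX15-LEC, against 1161 ± 97.3 in wild-type LEC (SD, log2 fold change 0.28, limma adjusted p = 0.022). Without each library in turn, Emx2os-001 passed in 2 of 8 fits, with an adjusted p of up to 0.102 over all alternatives.

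4930458D05Rik-001, which shares 1052 bases with exons of Gpat3, a glycerol phosphate acyltransferase gene named Agpat9 in the table, rose by 0.44 ± 0.10 on the log2 scale (limma adjusted p = 0.023), and this gene rose by 0.76 (adjusted p = 2.0e-05). Gm37305-001, which shares 442 bases with Ccnl1, a cyclin gene linked to splicing, rose by 0.32 ± 0.07 (adjusted p = 0.024), and Ccnl1 did not pass, at -0.07 (adjusted p = 0.51). A930015D03Rik-001 (0.69 ± 0.18, adjusted p = 0.041), 5430405H02Rik-002 (0.51 ± 0.13, adjusted p = 0.045) and 1500015A07Rik-002 (0.32 ± 0.08, adjusted p = 0.048) complete the 15. In 1500015A07Rik-002 the next start, 65 bases away, is that of Grpel2, a mitochondrial cochaperone gene with a log2 fold change of 0.03 (adjusted p = 0.58). Gm37305-001, 4930458D05Rik-001 and 1500015A07Rik-002 were named after their values were seen.

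Among the transcripts that fell, Gm15998-001 (chr3:89315439-89318907, plus strand) shares 344 of its 1844 bases with exons of Efna3, the ephrin-A3 ligand gene. It had 27.2, 27.4, 29.0 and 32.2 normalized counts in siL-DHX15-LEC, against 57.7, 46.0, 59.5 and 53.7 in wild-type LEC, without overlap (log2 fold change -0.88 ± 0.18, limma adjusted p = 0.017). Efna3 fell with it, to 144 to 182 in siL-DHX15-LEC, against 238 to 278 in wild-type LEC (log2 fold change -0.64, limma adjusted p = 0.0006).

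6030442K20Rik-001 (chr1:132466433-132477045, minus strand), with the largest fall of the 6, had 27.2, 34.5, 41.2 and 50.1 normalized counts in siL-DHX15-LEC, against 64.9, 61.9, 82.5 and 71.8 in wild-type LEC (log2 fold change -0.89 ± 0.22, limma adjusted p = 0.036). The genes beside it moved the other way: Dstyk, a kinase gene with 526 shared bases, rose by 0.23, and Rbbp5, a subunit gene of histone H3 methyltransferase complexes whose start is 320 bases away, rose by 0.20 on the log2 scale (limma adjusted p = 0.0033 and 0.0023).

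Zfp335os-001 (chr2:164911354-164919953, plus strand) shares 234 bases with the zinc finger gene Zfp335. It had 110.4, 108, 119 and 103 normalized counts in siL-DHX15-LEC, against 178, 137, 147 and 152 in wild-type LEC (log2 fold change -0.47 ± 0.12, limma adjusted p = 0.04), and passed in 0 of the 8 fits without 1 library, with an adjusted p of up to 0.0986 over all alternatives. Zfp335 rose to 6400 ± 251 in siL-DHX15-LEC, against 5827 ± 107 in wild-type LEC (SD, log2 fold change 0.13, limma adjusted p = 0.02).

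The single-exon 4833413G10Rik-001 had 45.8, 54.8, 70.2 and 70.0 normalized counts in siL-DHX15-LEC, against 104, 103, 111 and 102 in wild-type LEC (log2 fold change -0.81 ± 0.17, limma adjusted p = 0.019). Gm26982-001, beside Ghrl, which was too low to be tested, had 163, 155, 142 and 162 in siL-DHX15-LEC, against 264, 217, 204 and 216 in wild-type LEC (log2 fold change -0.53 ± 0.11, limma adjusted p = 0.021).

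Of the 21 transcripts, 14 overlapped a gene on the other strand that could be tested as a sum of its isoforms. Of these 14 genes 8 passed (57.1%), where 117 of the 300 genes that face any tested antisense transcript (39.0%) and 33.2% of all 16522 genes did. The 5 pairs of Zfas1 and Znfx1, Gm867 and Chchd10, Emx2os and Emx2, 4930458D05Rik and Gpat3, and Gm15998 and Efna3 moved the same way, and the 3 pairs of Gm13205 and Casz1, Zfp335os and Zfp335, and 6030442K20Rik and Dstyk moved opposite ways. Over all 369 tested antisense transcripts that overlap a tested gene, 194 had the same sign as that gene, and Spearman's rho between the log2 fold changes was 0.226. This is a description across pairs measured in the same 8 libraries, in which several transcripts share a gene.

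By layout, 11 of the 348 tested transcripts with exons over exons of the other strand were higher and 5 were lower. Of the 77 that overlap without shared exon bases, 1 was higher and 0 were lower, with 3 higher and 1 lower of the 56 that start within 1000 bases of a gene without overlap, and 0 of the 21 that lie farther away (limma, adjusted p of 0.05). Among all isoforms 6.61% were higher and 3.83% lower, and the classes were not tested against each other.

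Summed per gene, 60 of the 403 antisense genes tested passed (14.9%), 38 in the higher direction and 22 in the lower. Among all genes 33.2% passed, 18.4% higher and 14.8% lower. With only the highest isoform of each gene in this fit, 34 of 377 antisense genes were higher and 17 lower. Of all 16241 genes in that fit, 2609 were higher and 1994 lower. What part the pooling of isoforms has in the difference from the fit over transcripts was not tested. With libraries rescaled to equal totals, 31 antisense genes were higher and 40 lower, with 11.3% of all genes higher and 23.6% lower. Without wild-type LEC replicate 3 there were 28 antisense genes higher and 11 lower, without wild-type LEC replicate 4 there were 28 and 12, without siL-DHX15-LEC replicate 1 there were 32 and 14, without siL-DHX15-LEC replicate 3 there were 28 and 14, and without siL-DHX15-LEC replicate 4 there were 38 and 35.

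Where an antisense gene is named after a sense gene by the ending os, as or ot, the name gives the pair. Such names pointed to a gene of the table for 266 antisense genes with 472 transcripts, and in 51 pairs both genes had a mean of at least 10. Of these 51, the annotation placed an antisense transcript over the named gene in 30. Of the antisense genes, 6 were higher and 3 were lower (17.6%), and of the named sense genes 11 were higher and 12 were lower (45.1%), against 14.9% of all antisense genes tested and 33.2% of all genes. In 6 pairs both genes passed: Emx2os with Emx2, Tmem147os with Tmem147 and Hk1os with Hk1 rose together, and Zfp335os with Zfp335, Fbxl12os with Fbxl12 and Appbp2os with Appbp2 went opposite ways.

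Appbp2os had the largest difference in its ratio to the sense gene of these 6. It had 47.5, 35.3, 42.1 and 41.6 normalized counts in siL-DHX15-LEC, against 22.7, 17.5, 31.3 and 26.8 in wild-type LEC, a log2 fold change of 0.76 ± 0.20 (limma adjusted p = 0.014). Appbp2 fell to 9037 ± 398 in siL-DHX15-LEC, against 12368 ± 206 in wild-type LEC (SD, log2 fold change -0.45), and the log2 ratio of antisense to sense was 1.21 higher in siL-DHX15-LEC. Hk1os, with the hexokinase gene Hk1, rose by 0.52 ± 0.11 to 151 ± 14.3 in siL-DHX15-LEC, against 105 ± 11.6 in wild-type LEC (SD, limma adjusted p = 0.00502), and Hk1 by 0.17. Fbxl12os fell by 0.50 ± 0.15 on the log2 scale, to 32.3 to 38.9 in siL-DHX15-LEC, against 44.3 to 56.2 in wild-type LEC (limma adjusted p = 0.0236), and Fbxl12 rose by 0.21. These 3 antisense genes were named after their values were seen.

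Across the 51 pairs the log2 ratio of antisense to sense was tested with a two-sided exact permutation test. In 13 pairs it reached 0.0286, the smallest p that 4 against 4 libraries allow, 8 times with the higher ratio in siL-DHX15-LEC and 5 times with the lower, and 0 of 51 passed after Benjamini-Hochberg adjustment, for which 30 pairs at that p would be needed. Wt1os, beside the transcription factor gene Wt1, was among the 13: its log2 fold change of 0.18 did not pass (limma adjusted p = 0.32), while Wt1 fell to 3956 ± 28.4 in siL-DHX15-LEC, against 5047 ± 200 in wild-type LEC (SD, log2 fold change -0.35, limma adjusted p = 9.3e-05).

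**Figure D5:**
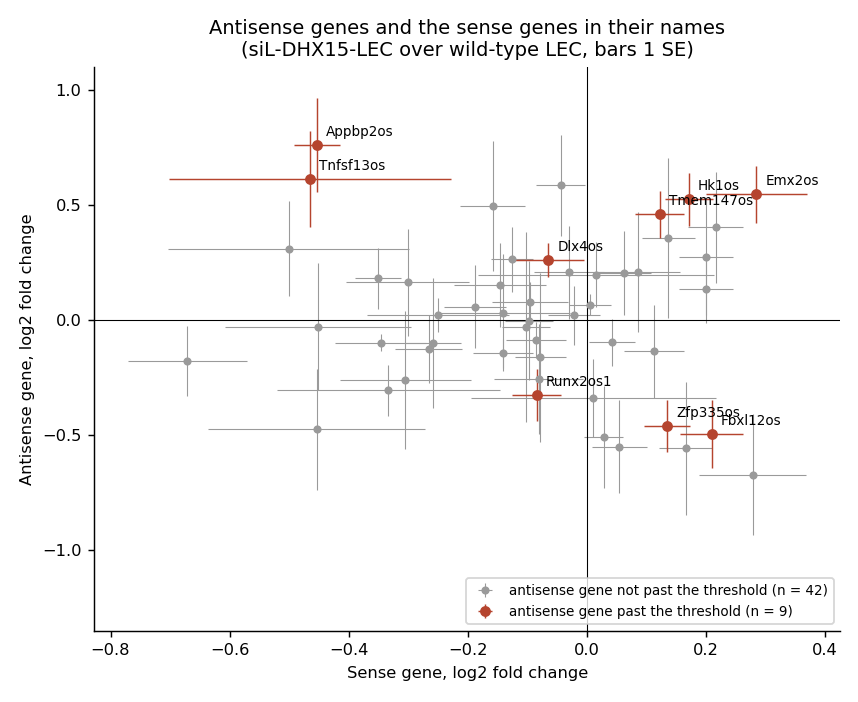
Each point is 1 of 51 pairs of an antisense gene and the sense gene in its name, with the log2 fold change of siL-DHX15-LEC over wild-type LEC of the sense gene across and of the antisense gene up, and bars of 1 SE. The 9 antisense genes past the threshold are named, and 6 of them lie above 0.

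Most other pairs did not pass. Map2k3os-001 (log2 fold change -0.09), Sp3os-001 (0.07), Zbtb11os1-001 (0.08), Tomm6os-001 (-0.10) and Zeb2os-002 (0.15) did not pass, and neither did their sense genes Map2k3, Sp3, Zbtb11, Tomm6 and Zeb2 (limma adjusted p of 0.13 or more for each sense gene). Rab10os, next to the gene of the small GTPase Rab10, had isoforms with log2 fold changes between -0.49 (Rab10os-002) and 0.41 (Rab10os-003), none of which passed, and Rab10 had one of 0.01. Dlx4os-001 (0.26), Rab26os-001 (-0.26) and Runx2os1-001 (-0.32) did not pass as transcripts (limma adjusted p = 0.083, 0.26 and 0.15). In the fit over genes, where each is the same single transcript, Dlx4os and Runx2os1 passed (limma adjusted p = 0.0203 and 0.0439).

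A list of 41 antisense RNAs known by name was written from general knowledge. Of these, 19 had transcripts of antisense biotype in the table, and the others were not looked for under other biotypes. As a sum of these transcripts, 12 of the 19 had a mean of at least 10. By limma at gene level, 2 of these rose and 0 fell, where 14.9% of all antisense genes tested and 33.2% of all genes passed. The 2 were Emx2os and Hoxd3os1. Tsix and Pax6os1 were at 0 in every library.

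The list held transcripts of imprinted loci. Airn, which silences Igf2r in cis, summed to 62.8, 89.2, 116 and 100.3 normalized counts in siL-DHX15-LEC, against 122, 125, 143 and 108 in wild-type LEC, with overlap (log2 fold change -0.46, limma adjusted p = 0.0602). Igf2r did not pass, at 0.11 on the log2 scale (adjusted p = 0.055). Nespas, antisense in the Gnas locus, summed to 217, 206, 197 and 217 in siL-DHX15-LEC, against 264, 206, 250 and 279 in wild-type LEC (log2 fold change -0.25, limma adjusted p = 0.0809). Gnas, as the sum of all its isoforms that are not antisense, rose by 0.21 (limma adjusted p = 0.0012). Its isoforms were not compared with Nespas one by one. Igf2os was at 0 in all siL-DHX15-LEC libraries and at 4.12, 0.79, 3.13 and 1.73 in wild-type LEC, at or near the level of 3 reads.

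In the Hox clusters, Hotairm1 summed to 977 to 1131 normalized counts in siL-DHX15-LEC and 1038 to 1155 in wild-type LEC (log2 fold change -0.05, limma adjusted p = 0.51). Hoxb3os-002, 97.2% of whose bases lie in Hoxb3 exons, had 259.8, 267, 251 and 238 in siL-DHX15-LEC, against 325, 294, 300 and 310 in wild-type LEC, without overlap (log2 fold change -0.27, limma adjusted p = 0.069), and Hoxb3 fell by 0.14 (adjusted p = 0.049). Hoxd3os1 summed to 306, 345, 302 and 293 in siL-DHX15-LEC, against 278, 263, 220.3 and 272 in wild-type LEC, without overlap (log2 fold change 0.27 ± 0.09, limma adjusted p = 0.0411). Hoxa11os, at 23.0 to 36.9 in siL-DHX15-LEC and 19.8 to 27.1 in wild-type LEC, did not pass (log2 fold change 0.31, adjusted p = 0.27).

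Dnm3os, the host of the precursors of miR-199a and miR-214 in the gene of the dynamin Dnm3, summed to 195, 164, 179 and 282 normalized counts in siL-DHX15-LEC, against 195, 259, 297 and 279 in wild-type LEC, with overlap (log2 fold change -0.34, limma adjusted p = 0.15). The gene Dnm3 averaged 23.6 ± 3.77 in siL-DHX15-LEC and 23.4 ± 3.55 in wild-type LEC (SD, adjusted p = 0.97).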

How the data were processed

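Isoforms were read from 8 poly-A libraries, 4 of siL-DHX15-LEC and 4 of wild-type LEC. For alignment to GRCm38 the authors used STAR 2.5.2a, for quantification RSEM 1.2.28 with GENCODE M12, and for scaling the size factors of DESeq2 1.18. The deposited values are a signal, normalized counts per isoform, and not raw counts. Divided by the value of 1 read (0.794 to 1.70 by library), 100% of them came out whole with a tolerance of 0.1 reads, and these reads entered edgeR and DESeq2, which called 17 and 35 antisense transcripts.

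Transcripts and genes were filtered at a mean of 10 over the 8 libraries and tested with limma 3.58.1 (R 4.3.3) with a trend, on log2(normalized count + 1), two-sided, with Benjamini-Hochberg adjustment over all isoforms or all genes. Fold changes are on this scale, which understates those of low transcripts. Called means an adjusted p under 0.05. A sense gene was the sum of its isoforms without antisense ones. Single values per library had an exact permutation test. As alternatives served pseudocounts of 0.5 and 5, a filter at 50 or none, TMM, equal totals, no trend, edgeR 4.0.16, DESeq2 1.42.0, an adjusted p of 0.001, sums per antisense gene and leaving out each library. The fit was run on simulated data whose changes were no smaller than those of the called antisense transcripts. Only transcripts with a mean of at least 50 were changed there, so lower transcripts and smaller changes were not covered.

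Named were the 10 largest rises and falls among called transcripts with a mean of at least 20, the 10 with the highest mean, any at 0 in 1 condition and at a mean of at least 20 in the other (0 found), those on the list of known antisense RNAs, the first 20 whose name gives a sense gene, and Dhx15. The transcripts and lists were chosen with earlier results of these data known. Positions were matched to GENCODE M21 on GRCm38 and promoter sequences to RefSeq. The tables of the sequencing center were read for the lanes only. Some neighbouring genes and sequences are not reported here.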

Additional observations from a re-analysis of the deposited data

Results flagged for a closer look

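In 170 groups of 4 libraries, the values of named transcripts, of the genes facing called transcripts and of the shares were checked for 1 library whose gap to the nearest of the others exceeded the 95% critical value of Dixon's test, which chance alone flags in about 1 in 20 groups. There were 11 such values.

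In siL-DHX15-LEC, the share of normalized counts in antisense transcripts was 0.0501% in replicate 4, against 0.0477% to 0.0481% in the others. Gm37305-001 had 438 normalized counts in 1 siL-DHX15-LEC library, against 487 to 490.1 in the others, and 2410022M11Rik-001 had 284, against 232 to 234. Airn-002 had 3.78, against 11.9 to 13.2, and the gene 4931406P16Rik had 5044, against 5341 to 5396.

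In wild-type LEC, Hoxd3os1-003 had 122 normalized counts in 1 library, against 165 to 169 in the others, and Hoxd3os1-004 had 81.4, against 68.37 to 69.96. 4930458D05Rik-001 had 138, against 156 to 159, Nespas-001 had 24.2, against 7.94 to 10.3, and Airn-002 had 1.73, against 14.4 to 15.1. The gene Tmem147 had 5510, against 5977 to 6007.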

How the results depend on the processing

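The number of antisense transcripts called higher was 15 and the number called lower was 6. Equal totals gave 9 higher and 12 lower, DESeq2 24 and 11, sums of isoforms per antisense gene 38 and 22, and an adjusted p of 0.001 gave 0 and 0. Leaving out 1 library gave 7 to 15 higher and 0 to 7 lower. The other alternatives gave 11 to 15 higher and 5 to 9 lower. The cause of these differences was not tested, and each fit without a library also had fewer samples. Of the 21 calls, all 21 were kept by pseudocount 0.5, TMM and DESeq2, 19 by pseudocount 5 and by a mean of at least 50, 18 without the trend, 17 by edgeR, 15 by equal totals and 13 without the filter, and 0 of the 21 changed sign under any setting. The difference in the share of counts was -0.00244 percentage points (exact permutation p = 0.0571, n = 4 each) and -0.00154 (p = 0.0286) over antisense genes only. Without 1 library the difference was -0.00298 to -0.00201, where the smallest possible p is 0.0571. The number of antisense to sense ratios past adjustment was 0 of 51 with each alternative run, which says nothing about stability because 30 of the 51 would have to reach the smallest possible p before any could pass, and ratios without 1 library were not run because no p could pass. For 112 named transcripts and sense genes, 1568 fold changes under alternatives were compared with the main fit. Of these, 116 no longer passed, 33 newly passed and 0 of the called ones changed sign. The 1568 include those of transcripts and genes that did not pass in the main fit and so had no call to lose. The share of calls lost is therefore larger than 116 of 1568. No paired analysis was possible because the labels give no replicate numbers, and those used here follow only the order of the deposited columns. Low counts limit most antisense transcripts: the median SE of the log2 fold change was 0.32 for means of 10 to 50 and 0.12 for means of 100 to 1000.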
